A study of Mus musculus with 4 samples.

Results

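The CCN proteins and the YAP/TEAD factors were followed as 10 genes of the 32287 features counted in single cells of the mouse penis: Ccn1, Ccn2, Ccn3, Ccn4 and Ccn5, the TEAD factors Tead1 and Tead2, the coactivators Yap1 and Wwtr1, and Ankrd1, a widely used target of YAP. They were picked by name, with their differences between DTA- and DTA+ penises in view, so those differences are given below as a description without a test. Penises were taken at embryonic day 16.5, while the urethra closes, with 2 samples of each genotype. DTA- embryos (Nr5a1cre- x DTA f/+) carried the floxed diphtheria toxin allele without Cre. DTA+ embryos (Nr5a1cre+ x DTA f/+) carried the same allele with the Nr5a1-Cre transgene. The transgene turns the toxin on in cells that have expressed Nr5a1, to kill them. The paper counted a decrease of labelled cells in ablated penises, not a complete loss. Methods of the paper also list a floxed tdTomato reporter allele in the ablated mice, which the labels do not name. The genotypes may therefore differ in that allele too, and tdTomato transcripts were counted only in the DTA+ libraries. The transgene is also active in testes and adrenals, so loss of the labelled penis cells and loss of testis and adrenal hormones cannot be told apart in this comparison. The labels do not say whether the samples of a genotype were separate embryos or pools, and p-values therefore measure only the spread between these samples.

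CCN proteins are secreted matricellular proteins that bind integrins, heparan sulphate proteoglycans and growth factors, and Ccn1 and Ccn2 are induced rapidly by serum, stretch and adhesion. YAP (Yap1) and TAZ (Wwtr1) enter the nucleus when the Hippo kinases are inactive and bind TEAD factors on DNA, and Ccn1, Ccn2 and Ankrd1 are their standard readouts. In mesenchyme the pathway is known for coupling matrix stiffness and cell shape to transcription.

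The 4 libraries held 47040 cells and between 50779551 and 73577028 UMIs, each UMI standing for a captured mRNA molecule. After cell filters 31132 cells remained, with a median of 4700 and 4077 UMIs per cell in the DTA- samples and 3551 and 3560 in the DTA+ samples. Libraries shared between 31 and 48 cell barcodes per pair. The tdTomato reporter had 0 UMIs in each DTA- library and 3579 and 3140 in the DTA+ libraries. Before filters, 2230 of 11510 and 2329 of 11343 DTA+ cells held these UMIs. The paper describes leaky reporter transcripts, so such cells cannot be read as surviving labelled cells. Nr5a1 had 1 or 2 UMIs in each library, too few to check the labels. Clustering without the 10 genes gave 27 clusters, of which 18 were named by their markers ("-like") and 9 are called by leading genes, such as the Irx1/Col7a1 cluster. The UMIs of each gene were added up over the cells of a population in a sample and scaled to a common library size (CPM), and fold changes come from edgeR. Standard errors (SE) were derived as the size of the log2 fold change over the square root of F in edgeR's quasi-likelihood test. In such sums, fewer cells of a type within a population and less RNA per cell cannot be told apart. Of 23 populations, 20 held at least 20 cells in every sample and were compared, besides all cells together.

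Promoters were read for the members that RefSeq's promoter table (GRCm38.p6) held, 5 of 10: Ccn1, Wwtr1, Yap1, Ankrd1 and Tead2. TEAD factors are known to recognise GGAATG, read as CATTCC on the opposite strand, and the sequences are shown because Ccn1 and the coactivators differed in opposite directions between the genotypes. Each is the 250 bases upstream of the start on the gene's strand, with the match in capitals.
Ccn1, minus strand, chr3:145649986-145650235: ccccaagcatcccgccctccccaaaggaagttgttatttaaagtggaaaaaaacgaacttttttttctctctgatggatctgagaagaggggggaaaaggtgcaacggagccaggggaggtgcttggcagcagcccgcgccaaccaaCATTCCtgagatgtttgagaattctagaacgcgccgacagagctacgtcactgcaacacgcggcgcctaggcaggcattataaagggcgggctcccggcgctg
Wwtr1, minus strand, chr3:57575911-57576160: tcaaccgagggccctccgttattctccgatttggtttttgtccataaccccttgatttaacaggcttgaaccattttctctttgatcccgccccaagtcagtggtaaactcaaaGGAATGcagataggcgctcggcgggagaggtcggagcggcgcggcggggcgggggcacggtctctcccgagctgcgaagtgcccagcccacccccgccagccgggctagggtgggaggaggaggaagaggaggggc
Yap1, minus strand, chr9:8004597-8004846: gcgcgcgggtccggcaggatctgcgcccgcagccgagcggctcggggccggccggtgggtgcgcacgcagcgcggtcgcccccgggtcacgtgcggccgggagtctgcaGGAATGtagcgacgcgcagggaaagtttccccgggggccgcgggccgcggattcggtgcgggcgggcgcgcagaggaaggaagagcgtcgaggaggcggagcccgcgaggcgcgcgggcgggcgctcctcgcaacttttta
The match lay at bases -103 to -98 from the start of Ccn1, -136 to -131 for Wwtr1 and -141 to -136 for Yap1. RefSeq also gave Wwtr1 another start, from which the match lay at -170 to -165. Ankrd1 held 2 matches, at -210 to -205 and -123 to -118, and the Tead2 window held 0. The Tead2 window, 45215542 to 45215791, overlapped the annotated gene, which begins at 45215753. The Ankrd1 window, 36119845 to 36120094, lay inside the annotated gene, which ends at 36120099. Both windows are therefore upstream only of the RefSeq start. For Tead2, the bases after that start were found near the start of 0 annotated transcripts. On either strand the motif occurred in 12.6% of the 32851 windows of the table. The Ccn1 window also held TATAAA at -25 to -20, a box present in 12.4% of windows, and no match to TGANTCA, the site of AP-1 factors, which 6.75% of windows contained. A match says only that these letters are in the window.

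Ccn1 was the member with the widest range of fold changes between genotypes. It lies on chromosome 3 (145646976 to 145649981, minus strand, GRCm38) and encodes an integrin ligand that supports adhesion and migration. In control penises its level was highest in the Irx1/Col7a1 cluster, at 727 and 1064 CPM (895 ± 238, SD, n = 2), although Ccn1 itself was left out of clustering. The Rprm/Dsc3 cluster followed at 276 ± 6.87 CPM and the range of the 2 samples did not reach that of the first. Below it, neighbours in the order of 22 populations overlapped in their sample ranges, except that mast cell-like cells, at 6.34 and 18 CPM, lay below the Coch/Meox2 cluster at 58.9 and 49.1. Periurethra-like mesenchyme, which borders the closing urethra, stood in the middle at 172 ± 30.4 CPM.

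In the DTA+ penis Ccn1 was lower in several mesenchymal populations, among them periurethra-like and corpus cavernosum-like cells. Periurethra-like cells had 150 and 193 CPM in the DTA- samples and 51.6 and 45.6 CPM in the DTA+ samples. Both DTA+ values lay below both DTA- values, a log2 fold change of -1.83 (SE 0.18). Corpus cavernosum-like cells were named by cartilage markers, and their clusters led with Sox9 and Col9a1. These cells had 115 and 167 CPM in DTA- and 48.5 and 29.8 CPM in DTA+ samples, a log2 fold change of -1.84 (SE 0.22). The Thbd/Ptgis cluster differed most, with 184 and 224 CPM in DTA- and 9.87 and 28.3 CPM in DTA+ samples (log2 fold change -3.36, SE 0.25). In the DTA+ samples of that cluster 13 and 46 UMIs of Ccn1 remained, against 425 and 392 in the DTA- samples. Ccn1 was also lower in the joined clusters led by Akap12, which are described below (log2 fold change -1.87). That value ran from -2.41 to -0.86 with a sample left out, and the genotypes fill these clusters unequally.

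Within the periurethra-like class, the Mup17/Epha3 cluster, which expressed the Hedgehog target Hhip, held 146 and 174 CPM of Ccn1 in DTA- and 21.4 and 25.9 CPM in DTA+ samples. The groups did not overlap there.

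The lower level of Ccn1 was not shared by every population. Of 19 populations that passed the filter on low counts, 15 had a log2 fold change below 0 and 4 above, with a median of -0.55; over all genes and populations, 49.7% of fold changes were below 0. The DTA+ samples lay entirely below the DTA- samples in 9 populations and entirely above in 1, where 21.3% and 22.2% of all genes tested did so. Endothelium-like cells were the 1 population above, with 28.6 and 94.7 CPM in DTA- and 95.4 and 115 CPM in DTA+ samples, the nearest pair of samples being almost equal. Pericyte-like cells had 67.5 and 240 CPM in DTA- and 335 and 197 CPM in DTA+ samples, and osteogenic-like cells 210 and 156 against 175 and 266 CPM. These groups overlapped. In the Rprm/Dsc3 cluster the DTA+ samples themselves differed, at 64.9 and 347 CPM, with 272 and 281 CPM in the controls between them.

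**Figure D1:**
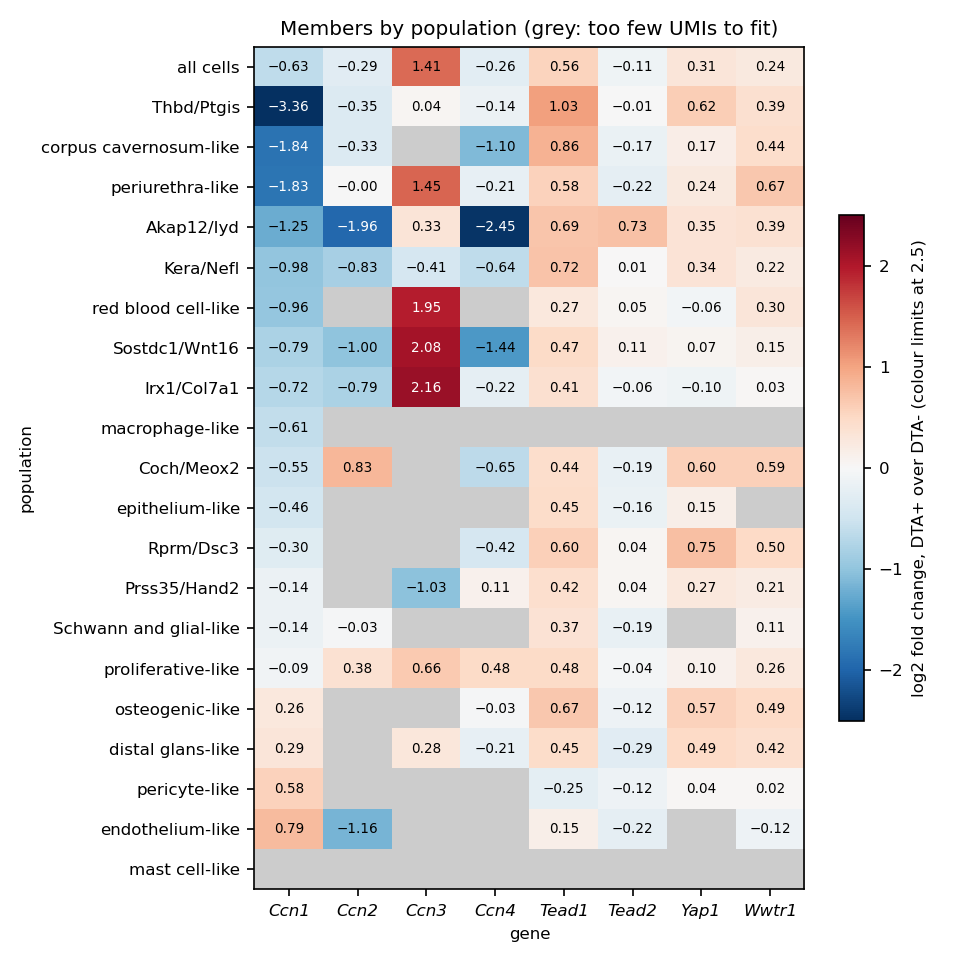
The log2 fold change of DTA+ over DTA- (colour and printed value) is plotted for 8 of the 10 genes (columns) in all cells and 20 populations (rows, ordered by Ccn1), with grey where too few UMIs were counted to fit; Ccn5 and Ankrd1 were fitted nowhere. Ccn1 runs from -3.36 to 0.79, Ccn3 is above 0 in 8 of 10 populations, and the Tead1 column is above 0 in all but pericyte-like cells.

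Over all cells Ccn1 had 169 and 266 CPM in DTA- and 151 and 130 CPM in DTA+ samples, a log2 fold change of -0.63 (SE 0.21) that was -0.27 without the second DTA- sample. That total rested unevenly on 1 population. The Irx1/Col7a1 cluster supplied 26.2% and 37.0% of all Ccn1 UMIs in the DTA- samples and 57.5% and 18.3% in the DTA+ samples, while holding 5.46% and 9.11% against 11.1% and 3.87% of the cells. Within it the level was 727 and 1064 CPM in DTA- and 616 and 474 CPM in DTA+ samples (log2 fold change -0.72, SE 0.19). The proliferative-like class held a cluster with 438 and 627 CPM in DTA- and 349 and 320 CPM in DTA+ samples beside another with 93.5 and 65.6 against 71.8 and 118 CPM.

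The same pattern held for the share of cells in which Ccn1 was seen. With every cell thinned to 1000 UMIs, since DTA+ cells were shallower, 11.8% and 13.9% of periurethra-like cells had a Ccn1 UMI in the DTA- samples and 5.32% and 5.18% in the DTA+ samples; unthinned, the shares were 31.0% and 34.8% against 12.5% and 12.1%. The exact 95% binomial intervals of the thinned shares, which cover counting error only, reached down to 9.30% in the DTA- samples and up to 7.60% in the DTA+ samples. In the Thbd/Ptgis cluster the thinned shares were 14.3% and 16.2% in DTA- and 1.09% and 1.69% in DTA+ samples, with 38.2% and 40.05% against 2.84% and 7.38% unthinned. Mast cell-like cells, lowest in the control order of Ccn1 given above, had thinned shares of 0 in every sample. Unthinned, their shares were 2.00%, 4.65%, 0 and 5.13% at median depths of 3882.5 to 5346 UMIs. The median depth of the Thbd/Ptgis cluster was 4953.5 and 4112 UMIs in DTA- and 2731.5 and 3241.5 in DTA+ samples. Its unthinned DTA+ shares were therefore taken at lower depth than those of mast cell-like cells, and 7.38% was above every mast cell-like value. Red blood cell-like cells had thinned Ccn1 shares of 3.33% to 9.30%, and they also held Tead1 at 99.4 to 152 CPM. Unthinned, their Ccn1 shares were 19.4% and 27.0% in DTA- and 11.5% and 8.33% in DTA+ samples, at median depths of 4634 to 5161 UMIs. All of these were above 7.38%. In DTA- samples red blood cell-like cells averaged 119.6 CPM of Tead1, 56.0 CPM of Wwtr1 and 46.4 CPM of Tead2. Macrophage-like cells averaged 8.59, 6.75 and 1.84 CPM of the same genes. Red blood cell-like cells were not tested as a background level. Whether the Ccn1 left in the DTA+ Thbd/Ptgis cells lay above background was not tested.

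**Figure D2:**
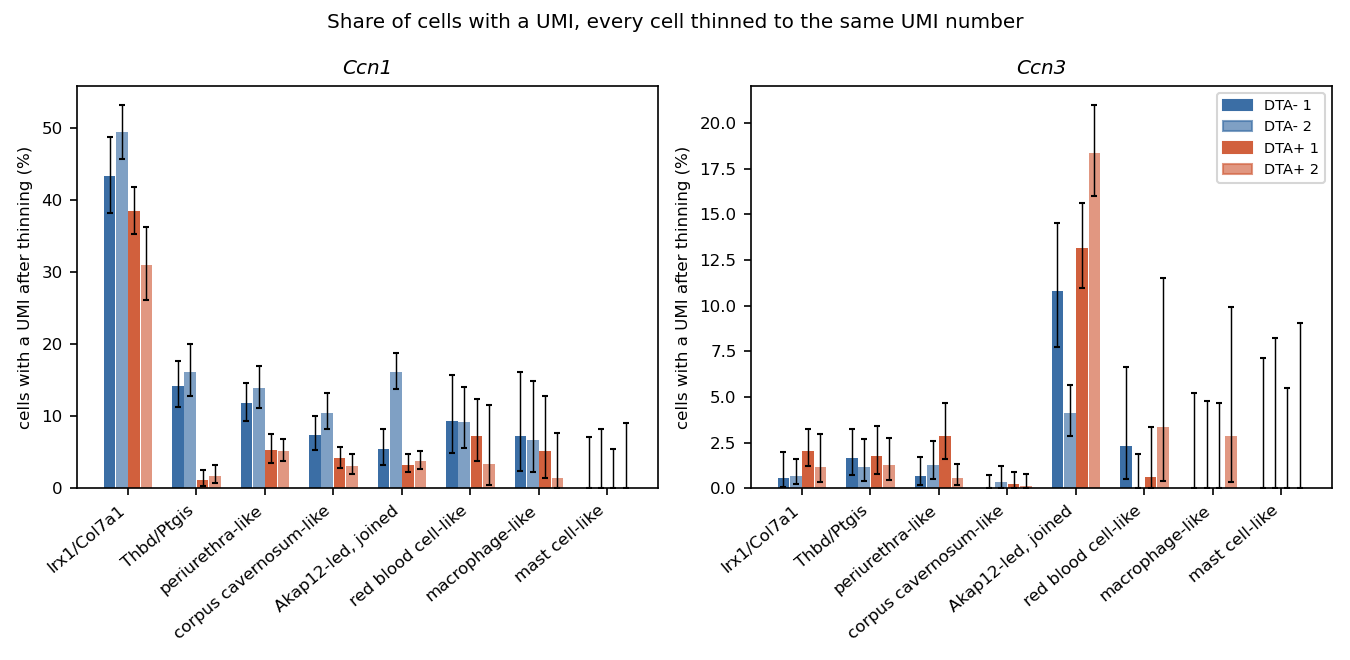
The share of cells with a UMI of Ccn1 (left) or Ccn3 (right) after thinning is plotted in percent, a bar per sample, with exact 95% binomial intervals that cover counting error only. Ccn1 is at 1.09% and 1.69% in the DTA+ bars of the Thbd/Ptgis cluster, and Ccn3 is at 4.11% to 18.4% in the joined Akap12-led clusters, the highest of the 8 populations drawn.

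Ccn1 is itself an immediate early gene, so the summed level of 14 other immediate early genes is given beside it. In periurethra-like cells that sum was 12217 and 16686 CPM in DTA- and 12047 and 14952 CPM in DTA+ samples. There 0 of the 14 genes passed the edgeR quasi-likelihood test, where 3.12% of all genes did. At an unadjusted p under 0.05 there was 1 of the 14, beside 1760 of all 11053 genes. In the Thbd/Ptgis cluster the sum was 14530 and 19562 against 15070 and 21419 CPM, and of 13 genes tested 1 rose and 3 fell, where 13.7% of all genes passed. The sums overlapped between the genotypes in both populations, unlike Ccn1. Over all cells the sum was 9050 and 18201 CPM in DTA- and 15610 and 14217 CPM in DTA+ samples. It was 16083 and 25592 against 23768 and 16399 CPM in the Irx1/Col7a1 cluster. Corpus cavernosum-like cells had 8800 and 20969 against 13646 and 14971 CPM. In each of these the second DTA- sample was above the first, as it was for Ccn1. The part of these genes in the Ccn1 differences was not tested. Elsewhere immediate early genes were called higher in DTA+: 8 of 14 in osteogenic-like cells (2.83% of all genes called in either direction), 6 of 13 in the Coch/Meox2 cluster (8.05%) and 5 of 13 in the Akap12/Iyd cluster (0.532%), with 0 lower in each. Smooth muscle markers, a source of Ccn1 in many tissues, summed to 113 and 131 CPM in DTA- and 32.7 and 27.0 CPM in DTA+ samples of the Thbd/Ptgis cluster, with 4 of 8 detected in every sample and 1 in none. In periurethra-like cells they summed to 150 and 210 against 254 and 128 CPM, with 6 of 8 detected in every sample. In corpus cavernosum-like cells they summed to 82.1 and 77.2 CPM in DTA- and 47.5 and 34.9 CPM in DTA+ samples, with 4 of 8 detected in every sample, and like Ccn1 these sums did not overlap. Their part in the Ccn1 difference was not tested.

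Ccn2, on chromosome 10 (24595442 to 24598683, plus strand), encodes a matrix protein bound up with fibrosis and, like Ccn1, is induced by YAP. It was highest in Schwann and glial-like cells, at 122 and 181 CPM in DTA- and 106 and 199 CPM in DTA+ samples, and next in endothelium-like cells. Endothelium-like cells had 66.8 and 47.4 CPM in DTA- and 27.9 and 22.9 CPM in DTA+ samples, a log2 fold change of -1.16 (SE 0.36). That is the opposite side from Ccn1 in the same cells. In periurethra-like cells, where Ccn1 was lower in DTA+, Ccn2 had 27.9 and 31.7 CPM against 29.9 and 29.5 CPM, with overlapping groups. The Coch/Meox2 cluster had 18.4 and 11.7 CPM in DTA- and 24.7 and 30.3 CPM in DTA+ samples. Ccn2 passed the filter in 11 of 20 populations, and the DTA+ samples lay below in 5 and above in 1 of them (over all genes and populations, 21.3% below and 22.2% above).

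In the Mup17/Epha3 cluster of that class Ccn2 had 5.14 and 9.96 CPM in DTA- and 8.24 and 7.78 CPM in DTA+ samples, which overlapped.

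Ccn3, on chromosome 15 (54745702 to 54754039, plus strand) and known as NOV, is often described as a CCN protein that counteracts proliferation and fibrosis. It had the opposite overall difference from Ccn1. Over all cells it stood at 13.5 and 12.9 CPM in DTA- and 30.3 and 39.9 CPM in DTA+ samples, a log2 fold change of 1.41 (SE 0.17). Most of its UMIs came from 3 clusters led by Akap12, among them subdermal fibroblast-like cells and the Akap12/Iyd cluster. Joined, a choice made after the data were seen, these clusters held 57.1% and 52.4% of Ccn3 UMIs in DTA- and 58.9% and 83.0% in DTA+ samples, with 5.36% and 10.8% against 10.8% and 10.9% of the cells.

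These clusters differed in which genotype filled them. Subdermal fibroblast-like cells numbered 249 and 824 in DTA- and 23 and 7 in DTA+ samples, while the Akap12/Iyd cluster numbered 38 and 23 against 769 and 619. Their Ccn3 levels were 70.1 and 58.3 CPM in DTA- and 135 and 130 CPM in DTA+ samples for the former and 155 and 87.3 against 151 and 180 CPM for the latter. Taken as 1 population, the Akap12-led cells had 128 and 56.4 CPM in DTA- and 154 and 257 CPM in DTA+ samples (log2 fold change 1.2005, SE 0.36). Their thinned share of cells with a Ccn3 UMI was 10.8% and 4.11% in DTA- and 13.1% and 18.4% in DTA+ samples. Outside these clusters the difference was smaller, with 6.18 and 6.98 CPM in DTA- and 14.1 and 7.80 CPM in DTA+ samples (log2 fold change 0.73, SE 0.29).

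Ccn3 was on opposite sides in different mesenchymal populations. In the Irx1/Col7a1 cluster it had 3.85 and 6.41 CPM in DTA- and 30.7 and 14.8 CPM in DTA+ samples, a log2 fold change of 2.16 (SE 0.39). Periurethra-like cells had 6.01 and 9.64 CPM in DTA- and 32.0 and 12.5 CPM in DTA+ samples (log2 fold change 1.45, SE 0.46), which was 0.70 without the first DTA+ sample. Their thinned shares of cells with a Ccn3 UMI overlapped, at 0.67% and 1.26% in DTA- and 2.85% and 0.58% in DTA+ samples. The Prss35/Hand2 cluster went the other way, with 32.4 and 43.2 CPM in DTA- and 15.0 and 21.3 CPM in DTA+ samples (log2 fold change -1.03, SE 0.35). The Thbd/Ptgis cluster, where Ccn1 differed most, had 12.6 and 11.4 against 19.7 and 6.14 CPM of Ccn3, with overlapping groups. Ccn3 passed the filter in 10 populations. The DTA+ samples lay above in 5 and below in 2 of them, where all genes did so in 22.2% and 21.3% of tests. The filter asks for enough UMIs in 2 samples, so a low gene can pass through its higher genotype alone. In red blood cell-like cells Ccn3 had 5 and 3 UMIs in DTA- and 14 and 6 in DTA+ samples. For a gene this low, the counts above and below therefore depend on the filter too.

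**Figure D3:**
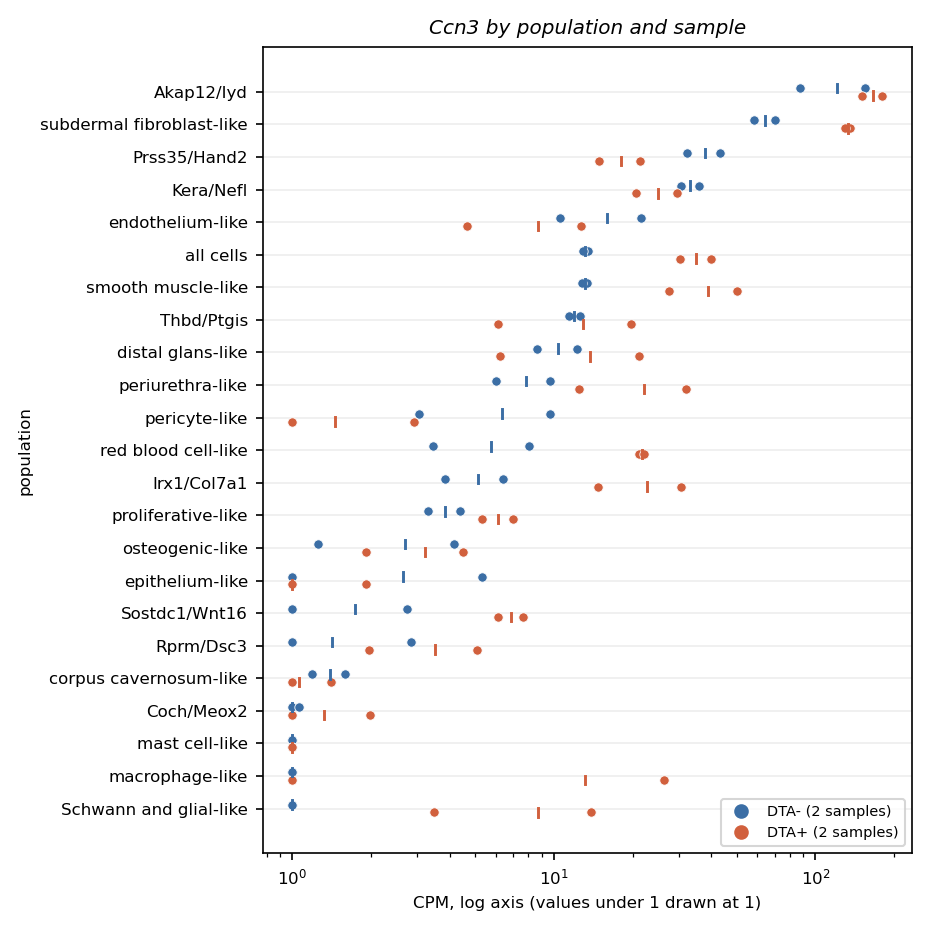
The Ccn3 level in CPM (log axis, values under 1 drawn at 1) is plotted for each sample (points) with the mean of the 2 samples of a genotype (bars), by population with at least 5 cells in every sample, ordered by the DTA- mean. The Akap12-led populations lie at the top, and the DTA+ points of the Irx1/Col7a1 cluster, 30.7 and 14.8 CPM, lie above their controls while those of the Prss35/Hand2 cluster, 15.0 and 21.3 CPM, lie below.

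Ccn4, on chromosome 15 (66891320 to 66923201, plus strand), is known as WISP1 and as a Wnt target of bone and fibrous tissue. It was highest in the Kera/Nefl cluster, whose leading gene Kera encodes a keratocan of fibrous tissue, at 81.8 and 85.0 CPM in DTA- and 61.3 and 45.9 CPM in DTA+ samples. Its log2 fold change there was -0.64 (SE 0.24). Corpus cavernosum-like cells had 15.5 and 17.6 CPM against 7.74 and 7.63 CPM (log2 fold change -1.10, SE 0.30), with little spread in either genotype. The gene passed the filter in 13 populations, of which 11 had a fold change below 0. The DTA+ samples lay below in 6 and above in 0, beside 21.3% and 22.2% for all genes.

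Ccn5, which lacks a domain that the other members of its family have, and Ankrd1 were barely detected. Ccn5 reached its highest control mean in osteogenic-like cells, 1.63 CPM, and Ankrd1 had at most 0.0934 CPM over all cells of any sample. Neither passed the filter in any of the 20 populations, so a difference was not detectable at this depth.

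Tead1, on chromosome 7 (112679318 to 112906807, plus strand), is a DNA-binding partner of YAP and TAZ. It was higher in the DTA+ samples in almost every population. Over all cells it had 129 and 153 CPM in DTA- and 211 and 206 CPM in DTA+ samples, a log2 fold change of 0.56 (SE 0.12). Of the 18 populations in which Tead1 passed the filter, the DTA+ samples lay entirely above in 16 and entirely below in 0, beside 22.2% and 21.3% for all genes. The largest difference was in the Thbd/Ptgis cluster, with 122 and 151 CPM in DTA- and 295 and 261 CPM in DTA+ samples (log2 fold change 1.03, SE 0.16). Corpus cavernosum-like cells followed, with 89.7 and 112 against 178 and 189 CPM (log2 fold change 0.86, SE 0.16), and periurethra-like cells had 138 and 155 against 224 and 212 CPM (log2 fold change 0.58, SE 0.14). Pericyte-like cells were the exception, with 173 and 143 CPM in DTA- and 146 and 106 CPM in DTA+ samples, which overlapped.

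Among single populations, the 3 with the lowest Ccn1 relative to controls were among the 16 of 18 with higher Tead1 in DTA+ samples. The higher Tead1 was therefore not particular to them. After thinning, 9.50% and 14.1% of Thbd/Ptgis cells had a Tead1 UMI in DTA- and 26.2% and 22.8% in DTA+ samples. In periurethra-like cells the shares were 10.8% and 12.3% against 19.4% and 18.5%. Unthinned, they were 45.8% and 42.2% against 53.0% and 50.1%.

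Tead2, on chromosome 7 (45215753 to 45233644, plus strand), is a TEAD factor known from early embryos and progenitors. Over all cells it had 86.1 and 74.3 CPM in DTA- and 71.1 and 77.5 CPM in DTA+ samples, with overlapping groups and a log2 fold change of -0.11 (SE 0.13). In 18 populations the fold changes ran from -0.29 to 0.73, and the DTA+ samples lay above in 1 and below in 3, beside 22.2% and 21.3% for all genes.

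The coactivators were higher in DTA+ samples over all cells, by less than Tead1 there, though not in every population. Yap1, on chromosome 9 (7931999 to 8004596, minus strand), had 44.3 and 51.1 CPM over all DTA- cells and 57.1 and 61.0 CPM over all DTA+ cells (log2 fold change 0.31, SE 0.13). The Rprm/Dsc3 cluster had 46.9 and 45.5 CPM in DTA- and 78.6 and 78.3 CPM in DTA+ samples (log2 fold change 0.75, SE 0.26). The Thbd/Ptgis cluster had 38.6 and 39.96 against 63.0 and 57.8 CPM (log2 fold change 0.62, SE 0.21). In both clusters the spread within a genotype was small beside the gap between genotypes. Of 16 populations, the DTA+ samples lay above in 10 and below in 0, beside 22.2% and 21.3% for all genes.

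Wwtr1, on chromosome 3 (57455649 to 57575910, minus strand), was highest in Schwann and glial-like cells, at 221 and 246 CPM in DTA- and 211 and 297 CPM in DTA+ samples. Periurethra-like cells had its widest gap, with 99.7 and 111 CPM in DTA- and 170 and 164 CPM in DTA+ samples (log2 fold change 0.67, SE 0.14). The Coch/Meox2 cluster had 104 and 150 against 199 and 180 CPM (log2 fold change 0.59, SE 0.17). The Irx1/Col7a1 cluster, the richest in Ccn1, had 138 and 139 against 146 and 136 CPM, with overlapping groups. Of 17 populations, the DTA+ samples lay above in 10 and below in 0, again beside 22.2% and 21.3%.

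**Figure D4:**
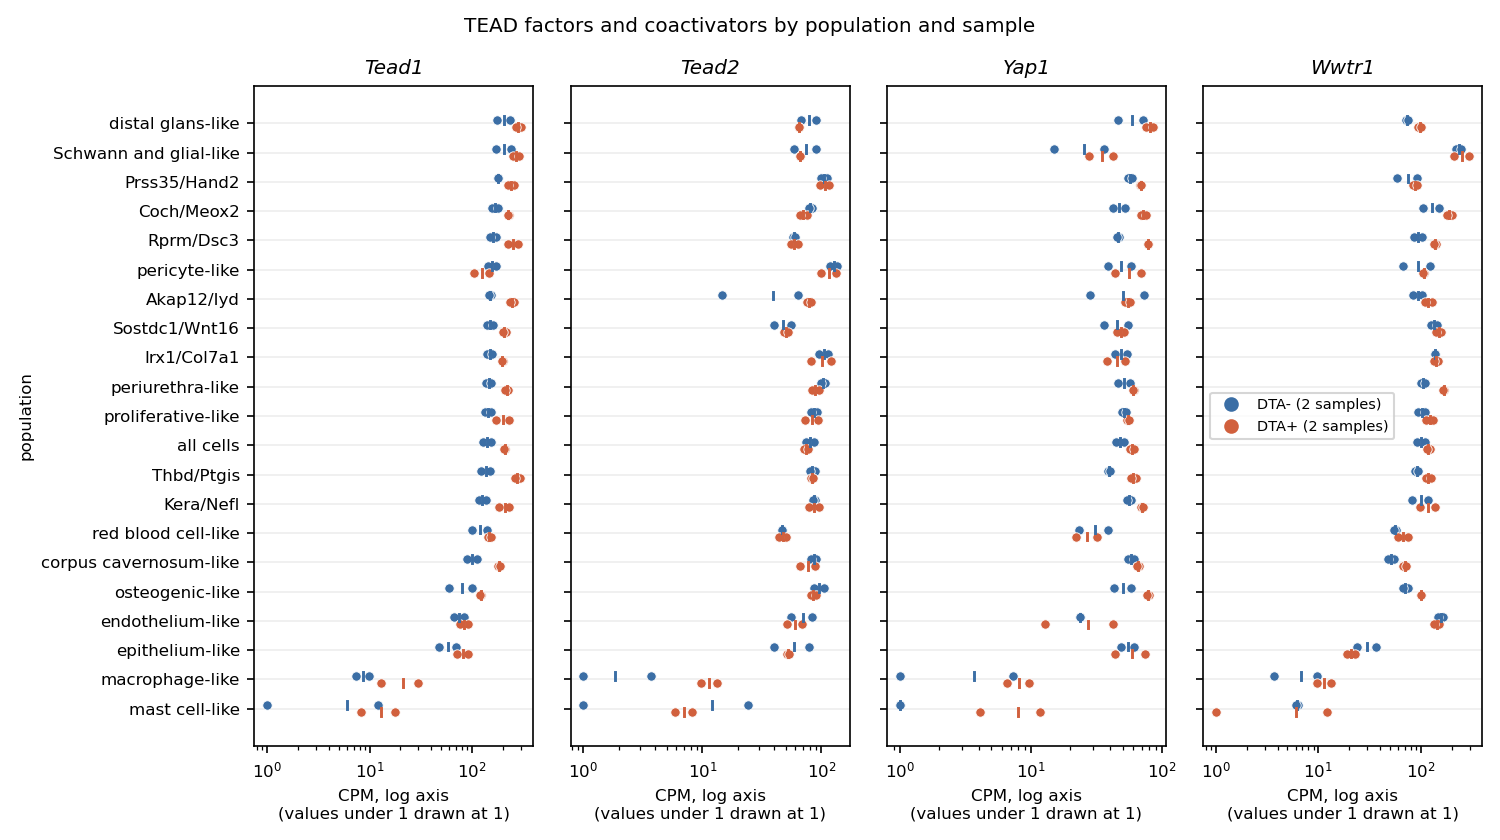
The level in CPM (log axis, values under 1 drawn at 1) of Tead1, Tead2, Yap1 and Wwtr1 is plotted for each sample (points) with the mean of the 2 samples of a genotype (bars), by population, ordered by the DTA- mean of Tead1. The DTA+ points of Tead1 lie to the right of the DTA- points in 16 of the populations fitted, while those of Tead2 overlap in most, and macrophage-like and mast cell-like cells have the lowest DTA- means for all 4 genes.

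Across the 22 populations with at least 20 control cells per sample, Tead1 had a pattern like those of Tead2 and the coactivators, while the CCN genes varied in how alike they were. On log2(CPM + 10) of the DTA- means, Tead1 correlated with Wwtr1 at r = 0.88, with Yap1 at 0.85 and with Tead2 at 0.83, and Yap1 with Wwtr1 at 0.65. Ccn1 correlated at 0.57 with Ccn4, at 0.05 with Ccn3 and at 0.01 with Ccn2, and at 0.54 to 0.55 with the TEAD factors and coactivators. Tead1, Tead2, Yap1 and Wwtr1 were all low in macrophage-like and mast cell-like cells, which are among these populations. Of 10644 genes, those most like Ccn1 were Rassf1 (0.83), Igsf10 (0.83), Cplx2 (0.82), Tpst1 (0.81) and Nrxn2 (0.79), and those most like Ccn3 were Gm20033 (0.85), Siae (0.84), Adamts15 (0.83), Aig1 (0.83) and Acss3 (0.82). The populations share libraries, so these values are a description.

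Around the members, 54 further genes of the pathway were followed in lists of Hippo regulators, TEAD paralogs and cofactors, CCN receptors and YAP and TAZ targets, and here the genotypes were tested. Over the 20 populations, 44 of 771 tests passed an adjusted p of 0.05 in edgeR's quasi-likelihood test, 30 higher and 14 lower in DTA+. That is 5.71%, where 2.93% of all tests passed. The calls came from 18 genes, and the populations share libraries. The lists were also chosen with earlier results of these data known, so these shares are a description. Hippo kinases and regulators gave 4 of 346 tests, TEAD paralogs and cofactors 2 of 49, and CCN receptors 8 of 165, all 8 higher, with genes shared between lists counted in each. YAP and TAZ targets gave 31 of 262 tests, 18 higher and 13 lower, so the list did not move one way. Over all cells 0 of 52 pathway genes passed, where 0.344% of all genes did. At an unadjusted p under 0.05 there were 8 of the 52, beside 2408 of all 15976 genes, and by DESeq2 3 passed, beside 551 of 15976.

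In periurethra-like cells 3 of these genes passed, where 3.12% of all genes did. Igfbp3, which binds insulin-like growth factors, rose from 262 and 216 CPM in DTA- to 547 and 845 CPM in DTA+ samples (log2 fold change 1.54, adjusted p = 0.00424). Tgfb2, a ligand of the TGF-beta receptors, fell from 184 and 236 CPM to 87.2 and 82.7 CPM (log2 fold change -1.30, adjusted p = 0.00321). Itga6, a subunit of laminin receptors that also bind CCN1, rose from 14.5 and 10.1 CPM to 27.3 and 29.2 CPM (log2 fold change 1.18, adjusted p = 0.0354). The call of Itga6 was lost without the second DTA- sample, at an adjusted p of up to 0.159 over the alternatives tried.

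In the Thbd/Ptgis cluster, where 13.7% of all genes passed, the target list split. Igfbp3 rose from 589 and 677 CPM to 2420 and 2559 CPM (log2 fold change 1.98, adjusted p = 3.45e-12), and Ccdc80, a secreted matrix-binding protein, rose from 70.7 and 63.9 CPM to 197 and 166 CPM (log2 fold change 1.43, adjusted p = 1.22e-06). Nt5e, the ectoenzyme CD73, fell from 48.6 and 67.4 CPM to 10.6 and 14.1 CPM (log2 fold change -2.19, adjusted p = 1.18e-06). Amotl2, an angiomotin that binds YAP, fell from 40.8 and 71.4 CPM to 21.3 and 27.0 CPM (log2 fold change -1.18, adjusted p = 0.00233). These 4 calls held without any single sample. Crim1 rose there and Myof fell, with log2 fold changes of 0.73 and -0.99, and neither call held without every sample.

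Igfbp3 was the target called in most populations. It rose in the Coch/Meox2 cluster, where 8.05% of all genes passed, by a log2 fold change of 1.22 and in distal glans-like cells, where 3.18% passed, by 1.54, calls that held without any single sample. In corpus cavernosum-like cells Igfbp3 (log2 fold change 2.11), Ccdc80 (1.18) and Fat4 (0.75), a cadherin upstream of the Hippo kinases, also rose, where 8.22% of all genes passed, but 0 genes of any kind passed in that population without either of the DTA+ samples. Nt5e fell in the Kera/Nefl cluster as well, from 53.7 and 62.7 CPM to 7.08 and 7.25 CPM (log2 fold change -3.00, adjusted p = 0.000809), in a population where 0.7% of all genes passed. Itga6 rose in osteogenic-like cells from 89.8 and 53.9 CPM to 202 and 231 CPM (log2 fold change 1.53, adjusted p = 0.00077), where 2.83% of all genes passed. The 14 immediate early genes summed to 14649 and 13472 CPM in DTA- and 21090 and 24960 CPM in DTA+ samples of those cells, and their part in the Itga6 difference was not tested. Red blood cell-like cells gave an Igfbp3 call too (log2 fold change 1.18, with 0.325% of all genes passing), and these cells also held Ccn1 and Tead1, as given above.

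Tgfb2 was called on both sides. It fell in periurethra-like cells, as given above, and in the Akap12/Iyd cluster (log2 fold change -1.37, with 0.532% of all genes passing), where the call was lost without the first DTA- sample and the DTA- samples held 38 and 23 cells. In the Coch/Meox2 cluster it rose from 178 and 117 CPM to 287 and 267 CPM (log2 fold change 0.91, adjusted p = 0.00199). Fjx1, a Golgi kinase that acts on the cadherins Fat4 and Dchs1, fell in that cluster from 301 and 301 CPM to 183 and 197 CPM (log2 fold change -0.67, adjusted p = 0.00588), a call lost without the first DTA+ sample. The immediate early genes of the Coch/Meox2 cluster summed to 4978 and 11722 CPM in DTA- and 15843 and 11107 CPM in DTA+ samples, and in the Akap12/Iyd cluster to 6302 and 9868 against 16805 and 15705 CPM. Their part in the calls of these clusters was not tested.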

How the data were processed

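Single-cell libraries of E16.5 penises, 2 per genotype, were prepared with a 10x Genomics kit. The authors deposited raw UMI counts, not normalized, for every gene in every cell, aligned to mm10 with reporter sequences added. The study's methods name Cell Ranger 3 and the submitters' processing notes version 4.0.0.

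The study's limits were read as over 1000 and under 7500 UMIs per cell, with mitochondrial and Hba transcripts each up to 25% and Hbb up to 50%. Seurat 5.3.0 (R 4.3.3) clustered them on 2000 variable genes without the 10 members, with 30 components at resolution 0.8. Names required 3 or more enriched class markers (seen in at least 5% of cells, log2 fold of at least 0.8 over other cells after adding 10 CPM), with 1 or more in the leading 25 genes and no other class ahead in the top 10, thresholds set after the data were seen. Doublets were not removed, since the automatic threshold of Scrublet (scanpy 1.11.5) called at most 1 cell per sample and so had not worked; removal by a rate was an alternative.

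Sums over the cells of a population in each sample went into edgeR 4.0.16 with genotype as the sole term, TMM scaling, the filterByExpr filter and the quasi-likelihood test, adjusted by Benjamini-Hochberg over all genes of a population. The filter asks for enough UMIs in 2 samples, so a gene can pass through a single genotype. With 2 samples per genotype, exact permutation of a single gene cannot reach the threshold. The fit was tested on simulated data. Members and lists were chosen with earlier results of these data known, so members carry no p-value. Named genes are the 10 members, called list genes averaging 20 CPM or more whose genotypes did not overlap (at most 3 higher and 3 lower per population), and the 5 genes most like Ccn1 and Ccn3. The separate levels of a few clusters are not reported here. Gene coordinates are from the GRCm38 annotation and promoters from RefSeq. Alternatives were DESeq2 1.42.0, edgeR's likelihood ratio test, other size factors, no filter, a replicate block, thinning to 1000 UMIs, doublet removal, different cell limits, resolutions 0.4 and 1.2, the members kept for clustering, and each sample left out. Steps in Python 3.11.15 used numpy 2.4.6, scipy 1.17.1, pandas 2.3.3 and matplotlib 3.10.9.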

Additional observations from a re-analysis of the deposited data

Results flagged for a closer look

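Ccn3 differed in opposite directions in 2 populations, with every DTA+ sample above every DTA- sample in one and below in the other. Its log2 fold change of DTA+ over DTA- was 2.16 in the Irx1/Col7a1 cluster and -1.03 in the Prss35/Hand2 cluster. Tgfb2 was called in opposite directions in the same sense, with a log2 fold change of 0.91 in the Coch/Meox2 cluster, -1.30 in periurethra-like cells and -1.37 in the Akap12/Iyd cluster. The difference between the populations was not tested for either gene. With 2 samples per genotype, no group was large enough to look for single outlying samples.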

How the results depend on the processing

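Of 1983 values of members' fold changes under the alternatives, 1870 kept their sign and 156 moved by more than the SD between replicates. Some of these values could not change, since over all cells the other resolutions and the members kept for clustering left the sums as they were. DESeq2, the likelihood ratio test and the other size factors also refitted the same sums. The Thbd/Ptgis and Irx1/Col7a1 clusters had no value without an upper UMI limit or at resolutions 0.4 and 1.2. No fitted population carried their labels there, so their fold changes were not checked against these settings. Leaving out 1 sample at a time, Ccn1 had log2 fold changes of -0.92 to -0.27 over all cells and -1.9997 to -1.63 in periurethra-like cells, and Ccn3 1.1995 to 1.59 over all cells and 0.70 to 2.05 in periurethra-like cells. Thinning cells to 1000 UMIs gave -1.54 for Ccn1 in periurethra-like cells. Ccn3 did not pass the filter there after thinning, and without an upper UMI limit it had 0.98. The 44 pathway calls over 20 populations became 24 with DESeq2 and 22 with thinned cells, and between 25 (without the first DTA+ sample) and 68 (without the second DTA- sample) with a sample left out, 29 without the second DTA+ sample. They were not counted under other clusterings, whose populations differ. The 0 pathway genes called over all cells became 3 with DESeq2, 3 with the likelihood ratio test, 4 with no filter, 1 with thinned cells and 0 to 2 with a sample left out. The 3 of periurethra-like cells became 6 with the likelihood ratio test, 7 with no filter and 2 (without the second DTA- sample) to 6 (without the second DTA+ sample) with a sample left out. The replicate number did not pair the samples (correlation of deviations over all cells -0.44), and as a replicate block it gave 1 pathway call over all cells, 5 in periurethra-like cells and 49 over the 20 populations. The crossed pairing, added after seeing the data, gave 8, 6 and 80. For a sample left out, the lone sample was assumed to vary like the other genotype. The cause of these changes was not tested. Depth limited Ccn5 and Ankrd1 everywhere and small populations such as mast cell-like cells, where 2552 genes passed the filter against 15976 over all cells.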
